A study of Prunus persica with 84 samples.

Results

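The genes described here were found in floral buds of peach (Prunus persica) at the opening of the flowers. They are 167 of 1150 genes with their highest 22 °C level on the day John Boy buds began to bloom, under limits given below. Unlike the other 983, the 167 did not reach 2 times their end-of-chilling level at any warm time in a later-blooming genotype. The later-blooming genotype was KV021779, called LP in the sample titles, and John Boy is called JB. Shoots carrying floral buds stood in water at 4 °C, and buds were taken after 0, 100, 200, 400, 600, 800 and 1000 h. The shoots were then moved to 22 °C and sampled at 1, 4, 8, 12, 16, 20, 24 and 28 d in LP, and at 1, 4, 8, 12, 16 and 20 d in JB. The last day was the onset of bloom in each genotype, 28 d in LP and 20 d in JB, per the labels' protocols, which write the later genotype as LFP. All groups were whole floral buds on cut shoots, each genotype is 1 background, and no other treatment or allele is named. Polyadenylated RNA was counted per gene in 84 libraries, 45 of LP and 39 of JB, with 3 for every genotype at every time, 28 groups in all.

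Peach flower buds enter dormancy in autumn and need a long time in the cold before warmth can open them. In warmth the bud resumes growth, the floral organs enlarge, pollen and ovules mature and the petals unfold, and large sets of genes switch on in the last days before anthesis. Genotypes differ in how much chilling and how much warmth they need, so the same bloom can come at different times. The study set these 2 genotypes of different flowering time against each other.

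The rule was as follows. Members were selected on measured levels in CPM, the share of a library's total counts that fell on a gene scaled to 1000000, and group means were taken over 3 libraries. A bloom gene of JB had its highest warm mean at 20 d, a mean there of at least 5 CPM, and at least 4 times the JB mean at 1000 h after adding 0.5 CPM to both. The 167 members had, on the same scale, less than 2 times the LP mean at 1000 h at every LP warm time from 1 to 28 d. The other 983 bloom genes reached that limit and are the comparison set. All warm levels and both 1000 h levels were thus the values the members were chosen by, and they are given as a description, with no test. Levels between 0 and 800 h of chilling were not used by the rule, and only these were tested. The table holds 26879 genes by identifier, pairs none of them with a description, and none matched the reference table, so members are named by identifier and no role is given. CPM were not divided by gene length, so levels are compared between libraries within a gene or within the same sum of genes.

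Library totals ran from 8021919 to 26346177 counts. Replicate pairs had a Pearson correlation across genes of 0.983 to 0.997 on log2(CPM + 0.5). JB 12 d replicate 3 and LP 28 d replicate 3 stood apart from their own groups, and the lowest correlation without them was 0.994. Nothing in the labels says that replicates came from separate trees, so p-values rest on a spread among samples that may be technical. PRUPE_DAM4, a dormancy-associated MADS-box gene used to check the tissue, stood at 607 ± 32.9 CPM in LP and 451 ± 21.6 CPM in JB at 0 h. At bloom it stood at 11.8 ± 3.05 CPM in LP (28 d) and 19.4 ± 1.20 CPM in JB (20 d) (SD, n = 3 each).

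The 167 members together took 0.155% of all reads at LP bloom (28 d) and 0.807% at JB bloom (20 d). Their JB mean at 20 d ran from 5.01 to 1381 CPM with a median of 16.4 CPM. It was at least 10 CPM for 112 members, at least 50 CPM for 37 and at least 100 CPM for 19. In LP the highest ratio of any warm time to 1000 h had a median of 1.40, ran from 0.367 to 2.00, and was under 1.5 for 101 members. The ratio of JB 20 d to JB 1000 h had a median of 12.8 and ran from 4.03 to 459. Set against its own JB level at 20 d, the highest LP warm mean of a member had a median of 5.84%.

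The 4-fold mark over 1000 h was reached late in JB. Read at each day by itself, it was met at 8 d by 2 members, at 12 d by 3 and at 16 d by 92, which is 55.1% of them. In the comparison set 57% met it at 16 d. The LP day with the highest ratio was 28 d for 116 members (69.5%), 1 d for 20 and 20 d for 15. In the comparison set LP was highest at 28 d for 79.1%. The share past 4-fold at JB 16 d was thus close in the 2 sets, but their median ratios at JB 1 d were not. At JB 1 d the median log2 ratio to JB 1000 h was 0.77, 0.81 and 0.76 in the comparison set. For the members, many of them near 0 CPM, it was 0 in each of these libraries. The sets held unlike shares of genes near 0 CPM and were split by their LP warm levels, and neither was adjusted for. This is a description, and no difference between the sets was tested.

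**Figure D1:**
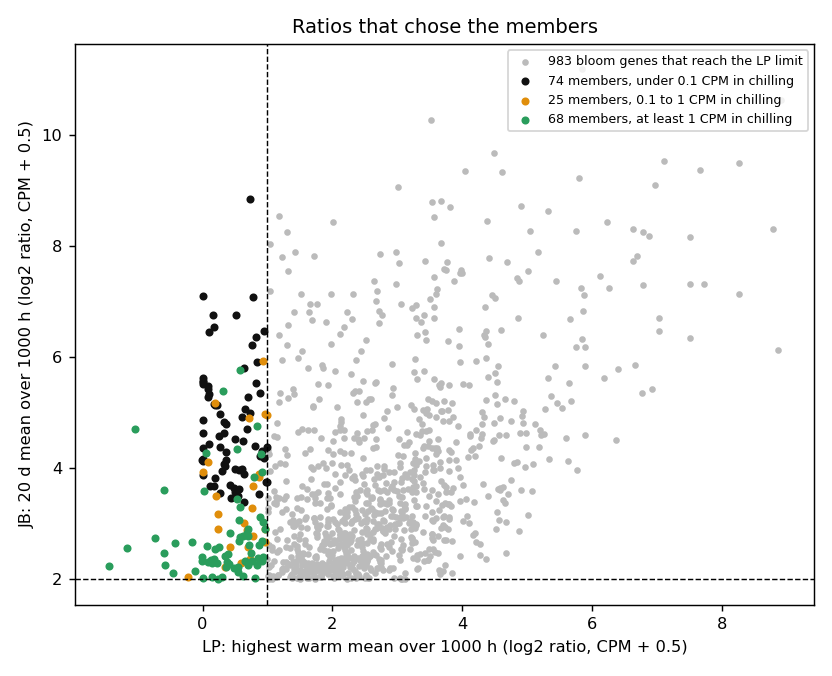
Each point is 1 of the 1150 JB bloom genes, with the highest LP warm mean over LP 1000 h on the horizontal axis and JB 20 d over JB 1000 h on the vertical axis, both as log2 ratios of CPM + 0.5, and dashed lines at the limits of the rule. The 167 members, coloured by their level in chilling, lie left of the LP line by construction, and the points crowd on both sides of it with no gap.

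No gap separated members from the rest at the limits. PRUPE_6G252300 and PRUPE_2G008900 lay just inside the LP limit, with highest LP ratios of 1.9992 and 1.9975. PRUPE_1G326200 at 2.0001 and PRUPE_3G068400 at 2.0053 lay just outside. At the JB limit of 4 times, PRUPE_1G066500 (4.03) and PRUPE_5G013600 (4.05) were inside, and PRUPE_8G150700 (3.97) and PRUPE_6G234300 (3.95) were outside. At the limit of 5 CPM in JB at 20 d, PRUPE_4G014100 (5.01 CPM) and PRUPE_1G144900 (5.05 CPM) were inside, and PRUPE_4G005900 (4.95 CPM) and PRUPE_6G207600 (4.93 CPM) were outside.

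The rule was also applied to 2 of the 3 replicate numbers and read in the replicate left out. With replicate 1 left out it chose 162 genes, of which 119 (73.5%) met the whole rule in replicate 1. With replicate 2 left out it chose 157, of which 112 (71.3%) met it in replicate 2. With replicate 3 left out it chose 197, of which 107 (54.3%) met it in replicate 3. The LP limit held in 84%, 84.1% and 59.9% of the chosen genes in the left-out replicates 1, 2 and 3, and the JB 4-fold mark in 93.8%, 90.4% and 94.4%. The LP limit was thus met least often in the replicate that holds the LP 28 d library standing apart. Between 143 and 149 of the 167 members were chosen each time. These are the libraries the rule used, and the replicates may be technical. The shares therefore describe how steady the choice was and are not independent support for it.

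The members fell into 3 classes by their mean level over the 36 libraries of 0 to 800 h of chilling, with cuts chosen after the levels were seen. There were 74 members (44.3%) under 0.1 CPM, called silent in chilling here, 25 (15%) from 0.1 to 1 CPM and 68 (40.7%) of at least 1 CPM. At JB 16 d the 4-fold mark was met by 91.9%, 44% and 19.1% of these 3 classes, in that order. That mark is a ratio to 1000 h, so a gene starting near 0 CPM passes it at a smaller part of its rise. As a share of its own JB 20 d mean, the JB 16 d mean of a member had a median of 45.5%, 40.1% and 33.8%. By that measure the classes lay closer together. In the comparison set 13.6% were silent in chilling, 22.9% were in the middle class and 63.5% were at 1 CPM or more.

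**Figure D2:**
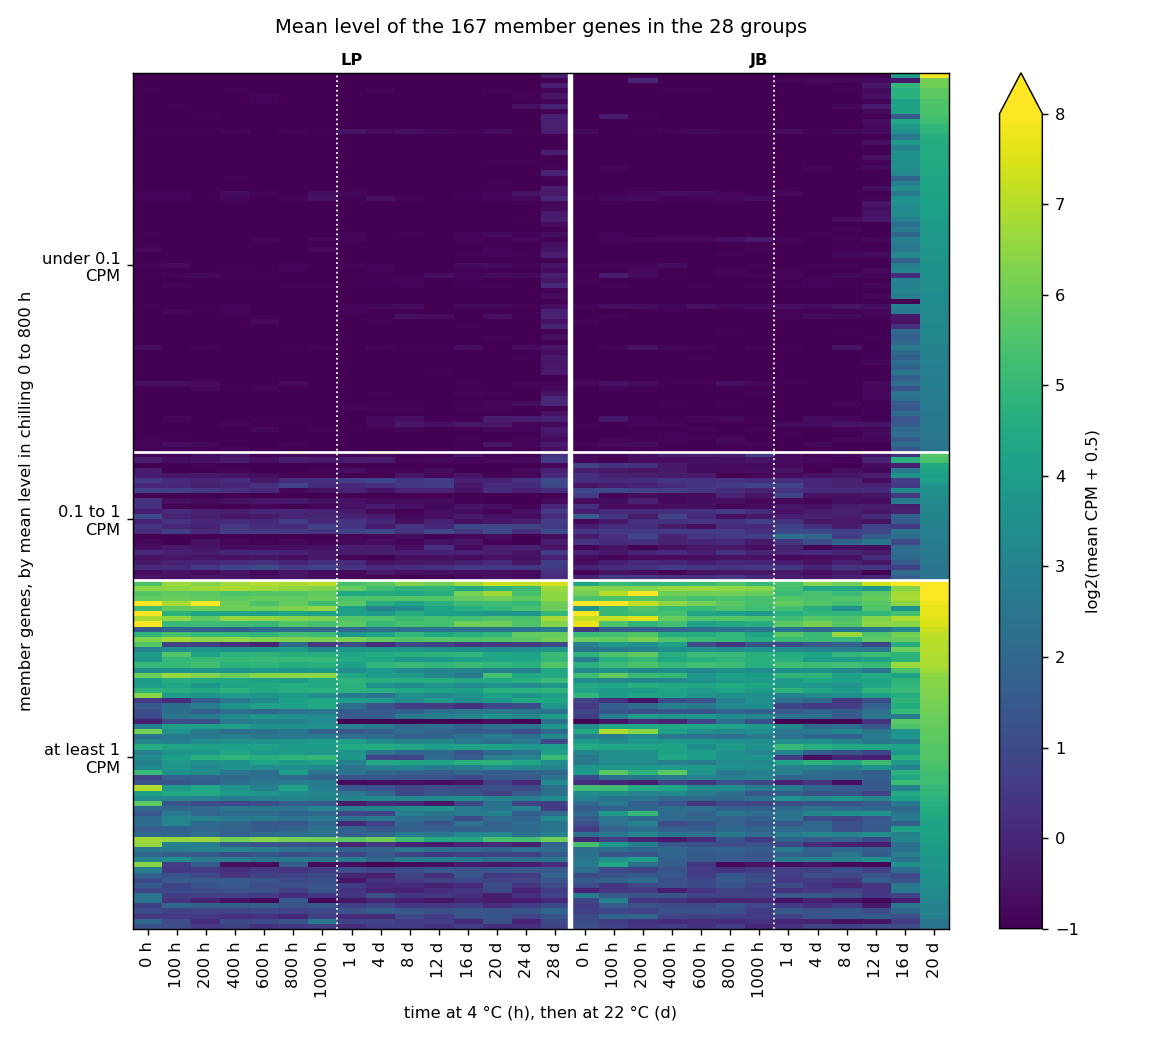
Rows are the 167 members, grouped by chilling class and ordered in each by JB level at 20 d, and columns are the 28 groups, LP on the left and JB on the right, with colour for log2 of the group mean CPM + 0.5 and dotted lines at the move to 22 °C. The silent members are dark in every LP column but slightly lighter at 28 d, and bright in JB at 16 and 20 d.

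The 74 members silent in chilling had few reads in LP at any time, and in JB they came on as a block between 12 and 16 d. Summed over the 74 genes, LP libraries lay between 0.617 and 0.759 CPM at 1000 h and stood at 1.95, 1.47 and 1.59 CPM at 24 d and at 9.28, 8.07 and 25.8 CPM at 28 d. In JB the sum was 5.90, 4.69 and 2.41 CPM at 12 d, 542, 543 and 550 CPM at 16 d, and 1424, 1479 and 1536 CPM at 20 d. All 3 LP 28 d libraries lay above all LP libraries at 1000 h and 24 d, and replicate 3 was the highest of them. The LP 28 d mean of 14.4 CPM, or 8.67 CPM without replicate 3, was 2.64% of the JB mean at 16 d and 0.973% of that at 20 d. In bulk buds, fewer cells of a type and less RNA per cell cannot be told apart.

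In number of genes, 68 of the 74 had reached 4 times JB 1000 h by 16 d in JB, and none had by 12 d. Reads were present for 42, 35 and 53 of the 74 genes in the LP 28 d libraries, for 72 to 73 in the JB 16 d libraries and for all 74 in each JB 20 d library. At JB 12 d reads were found for 37, 29 and 11, the last in the library that stood apart. The LP 28 d sum thus lay above that of JB at 12 d and far below that of JB at 16 d. For the 134 comparison genes that were silent in chilling by the same cut, the summed level was 787, 861 and 1336 CPM at LP 28 d. In JB it was 221, 215 and 96.9 CPM at 12 d and 3951, 4041 and 3902 CPM at 16 d. At JB 20 d it was 8630, 8801 and 9067 CPM. Their LP 28 d sum thus also lay above that of JB at 12 d and below that of JB at 16 d. Replicate 3 was the highest LP 28 d library in that sum too.

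**Figure D3:**
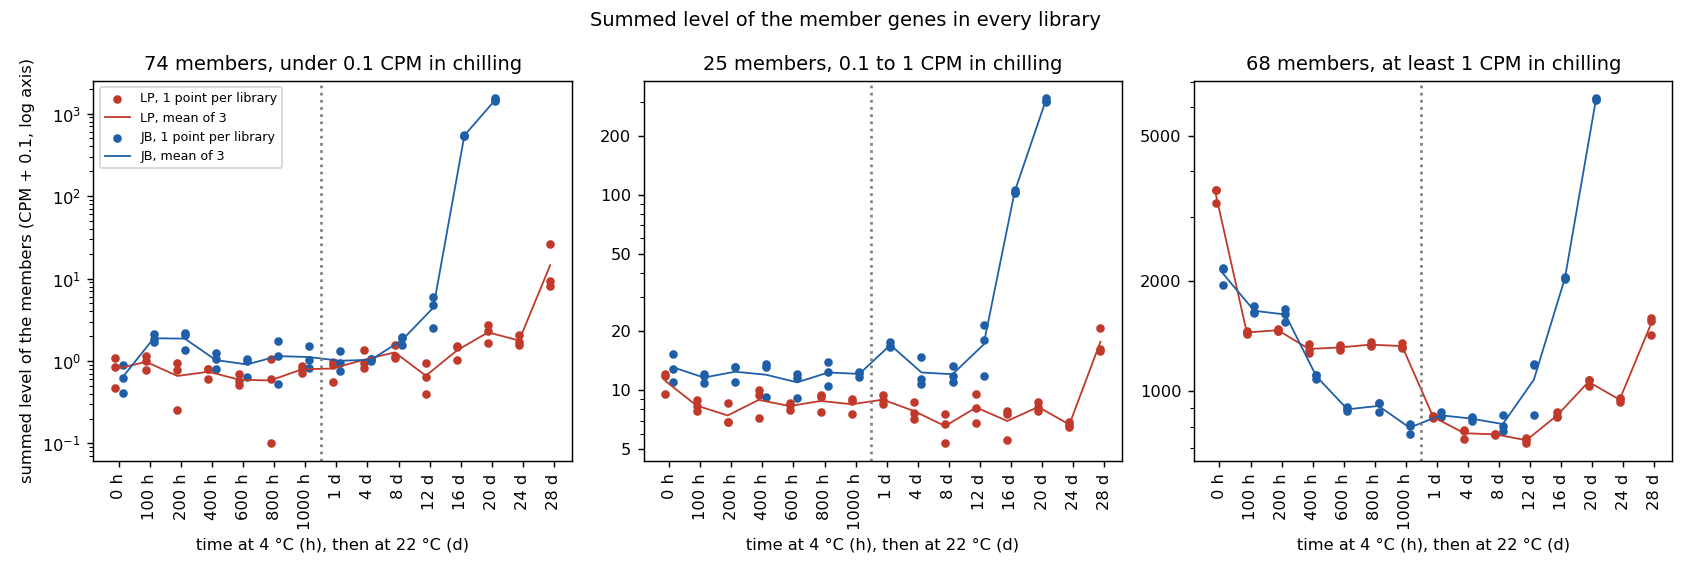
Summed CPM of the members of each chilling class, with 0.1 added, on a log axis against time at 4 °C and then 22 °C, with 1 point per library and lines through the means of 3. The silent class sits near 1 CPM in both genotypes until 8 d, reaches about 545 CPM in JB at 16 d, and stays at or below 25.8 CPM in LP through 28 d.

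The working name of the set, genes that never rise in LP, goes against these reads in part. Of the 74 silent members, 59 had more reads at LP 28 d than at LP 1000 h, with 419 reads at 28 d against 24 at 1000 h in all. For 20 of the 74 every LP 28 d library lay above every LP 1000 h library, where 46.8% of all tested genes met this. With 0.5 CPM added, a gene with no LP 1000 h read stays under the limit until its LP mean passes 0.5 CPM. With 0.1 CPM added instead, 45 of the 74 silent members, 15 of the 25 in the middle class and 6 of the 68 in the highest class passed 2 times. Over all 167 members, every LP 28 d library lay above every LP 1000 h library for 61 and below for 15, where 27.1% of all tested genes lay below. The rule used this contrast, so these counts are a description. The set is therefore described by its rule, as bloom genes under the LP limit.

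The LP 28 d library that stood apart carried more of this than the others. Taken alone, replicate 1 at 28 d would put 9 members over the LP limit, replicate 2 would put 10, and replicate 3 would put 35, of which 24 are silent in chilling. The part of that library in the result was measured by leaving it out, an alternative chosen after seeing the data. Without it the rule chose 200 genes, 160 of them members.

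Among the silent members, PRUPE_6G319200 had the highest JB level. In LP it had no read at 1000 h, 20 d or 24 d, and 0.375, 0.306 and 0.322 CPM at 28 d. Its JB level was 0, 0 and 0 CPM at 12 d, 15.2, 13.5 and 19.3 CPM at 16 d, and 230, 218 and 238 CPM at 20 d. All LP 28 d libraries lay far below all JB 16 d libraries, and the 10 reads of this gene in LP were all at 28 d. The next gene model, PRUPE_6G319300, was also a member, with a mean of 0 CPM at LP 28 d, and 3.88 and 8.52 CPM in JB at 16 and 20 d.

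No read in any of the 45 LP libraries was found for 12 members, 11 of them silent in chilling, and 15 members had none at LP 28 d. A count of 0 allows up to 3 counts, which is 0.00549 CPM over all LP libraries and 0.101 CPM over the LP 28 d group, as counting error only. PRUPE_3G064700 had the highest JB level of these, with 0.242, 0.573 and 0 CPM at 16 d and 69.6, 67.9 and 67.4 CPM at 20 d. It also had reads in JB at 200 h of chilling, 0.435, 0.670 and 0.316 CPM, where LP had none. Its JB level was near 0 until after 16 d, as in few of the silent members.

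PRUPE_1G341700 had 5.08, 6.01 and 5.78 CPM in JB at 16 d and 25.1, 24.4 and 22.8 CPM at 20 d. PRUPE_1G560200 had 13.9, 13.8 and 15.3 CPM in JB at 16 d and 22.1, 21.5 and 26.5 CPM at 20 d. PRUPE_1G058600 had 6.21, 5.63 and 9.69 CPM in JB at 16 d and 20.5, 23.6 and 24.5 CPM at 20 d. These 3 came on by 16 d, unlike PRUPE_3G064700, and none had a JB read at 0, 200, 800 or 1000 h. PRUPE_1G560200 did have JB reads at another time of chilling.

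Some members were neighbours in the numbering of gene models. With at most 2 steps between identifiers, 16 members formed 6 runs. The same count was not made for the comparison set or the table, so it does not set the members apart. The longest run of members held PRUPE_7G070800, PRUPE_7G070900, PRUPE_7G071000, PRUPE_7G071200, PRUPE_7G071300 and PRUPE_7G071400, 6 of 7 consecutive models. The model between them, PRUPE_7G071100, had a JB 20 d mean of 1.89 CPM, under the 5 CPM limit. The means of the 6 ran from 0.0653 to 0.392 CPM at LP 28 d, from 3.0 to 14.3 CPM at JB 16 d and from 7.30 to 29.6 CPM at JB 20 d, with no read at 1000 h in LP or JB.

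For the first of them, PRUPE_7G070800, the LP 28 d libraries held 0, 0.102 and 1.07 CPM, so the library that stood apart held nearly all of its LP reads. Its JB libraries held 14.9, 13.2 and 14.7 CPM at 16 d and 25.5, 33.1 and 30.3 CPM at 20 d. The genotypes did not overlap between these groups. Whether neighbouring models share reads through similar sequence was not tested, so single values within a run are uncertain. By the digit before the G in the identifier, taken as the chromosome, chromosome 1 held 23.4% of the members, 22.9% of the comparison set and 21.9% of the table. Chromosome 5 held 12% of the members, 8.04% of the comparison set and 9.17% of the table, and chromosome 2 held 9.58%, 10.4% and 12.3% of them.

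The 25 members of the middle class summed to 8.38 ± 0.770 CPM at 1000 h and 17.6 ± 2.79 CPM at 28 d in LP. In JB they summed to 17.0 ± 4.96 CPM at 12 d, 104 ± 1.73 CPM at 16 d and 304 ± 7.63 CPM at 20 d (SD, n = 3 each). The LP mean at 28 d was thus close to the JB mean at 12 d. PRUPE_3G305000 was 1 of the 3 members past 4-fold at 12 d in JB, and in LP it had 0.469, 0.409 and 0.107 CPM at 28 d. In JB it had 8.37, 5.91 and 1.32 CPM at 12 d, 1.29, 1.62 and 1.28 CPM at 16 d and 5.24, 5.73 and 6.64 CPM at 20 d. Its JB course held 2 high times with a low one between, and its lowest 12 d value is the library that stood apart.

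The 68 members of at least 1 CPM in chilling held most of the reads of the set and behaved otherwise. Their summed level in LP was 3463 ± 161 CPM at 0 h, 1328 ± 20.1 CPM at 1000 h, 734 ± 13.3 CPM at 12 d, 1061 ± 24.7 CPM at 20 d, 948 ± 13.6 CPM at 24 d and 1520 ± 85.6 CPM at 28 d. In JB it was 2094 ± 128 CPM at 0 h, 795 ± 26.9 CPM at 1000 h, 1076 ± 184 CPM at 12 d, 2039 ± 11.1 CPM at 16 d and 6294 ± 42.6 CPM at 20 d (SD, n = 3 each). On library totals LP at 28 d lay above its sum at 1000 h and under that at 0 h, but TMM scaling shifts LP 28 d by -0.27 on the log2 scale relative to 1000 h, which turns the order of 28 d and 1000 h. For 13 of the 68, the LP mean was below that of 1000 h at every warm time, and for 48 the LP 28 d mean was below the JB 16 d mean. Over all members, the LP 28 d mean was below the JB 16 d mean for 140.

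PRUPE_6G288600 had the highest JB level of all members, and its LP level was already high in chilling. In LP it had 44.1, 45.3 and 44.2 CPM at 0 h, 132, 137 and 130 CPM at 1000 h, and 172, 197 and 128 CPM at 28 d. JB libraries held 18.4, 19.5 and 19.1 CPM at 0 h, 31.2, 34.2 and 32.1 CPM at 1000 h, 202, 197 and 93.2 CPM at 12 d, 293, 307 and 296 CPM at 16 d, and 1356, 1387 and 1400.2 CPM at 20 d. LP at 28 d overlapped LP at 1000 h and lay below all JB 16 d libraries. The 4-fold mark in JB at 12 d rests on replicates 1 and 2, since replicate 3 held 93.2 CPM.

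PRUPE_4G278500 stood at much the same level in both genotypes at 1000 h. It had 79.9, 73.0 and 77.9 CPM at 1000 h, 27.4, 29.3 and 27.0 CPM at 20 d and 88.4, 96.2 and 111 CPM at 28 d in LP. JB libraries held 88.9, 78.1 and 87.2 CPM at 1000 h, 10.9, 10.4 and 19.3 CPM at 12 d, 78.5, 79.4 and 80.8 CPM at 16 d, and 387, 410 and 397 CPM at 20 d. Both genotypes passed through a low warm level, and LP at 28 d stood just above JB at 16 d.

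PRUPE_5G140100 had 57.3, 60.2 and 60.6 CPM at 1000 h and 88.3, 89.1 and 87.5 CPM at 28 d in LP. In JB it had 40.5, 38.3 and 41.5 CPM at 1000 h, 110, 116 and 113 CPM at 16 d, and 260, 254 and 271 CPM at 20 d. PRUPE_5G232300 had 34.4, 38.1 and 37.0 CPM at 1000 h and 82.5, 69.7 and 47.2 CPM at 28 d in LP, against 36.5, 36.3 and 49.4 CPM at 1000 h, 93.0, 88.5 and 78.1 CPM at 16 d and 236, 198 and 214 CPM at 20 d in JB. Both had LP 28 d libraries above all LP 1000 h libraries and below all JB 20 d libraries.

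PRUPE_1G513800 was the last of the 3 members past 4-fold at 12 d in JB. It had 3.37, 5.0 and 6.76 CPM at 28 d in LP, and 13.6, 14.1 and 5.78 CPM at 12 d, 4.59, 4.58 and 5.10 CPM at 16 d and 11.7, 13.2 and 12.7 CPM at 20 d in JB. As in PRUPE_3G305000, the JB 16 d libraries lay below those at 20 d and below replicates 1 and 2 at 12 d.

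**Figure D4:**
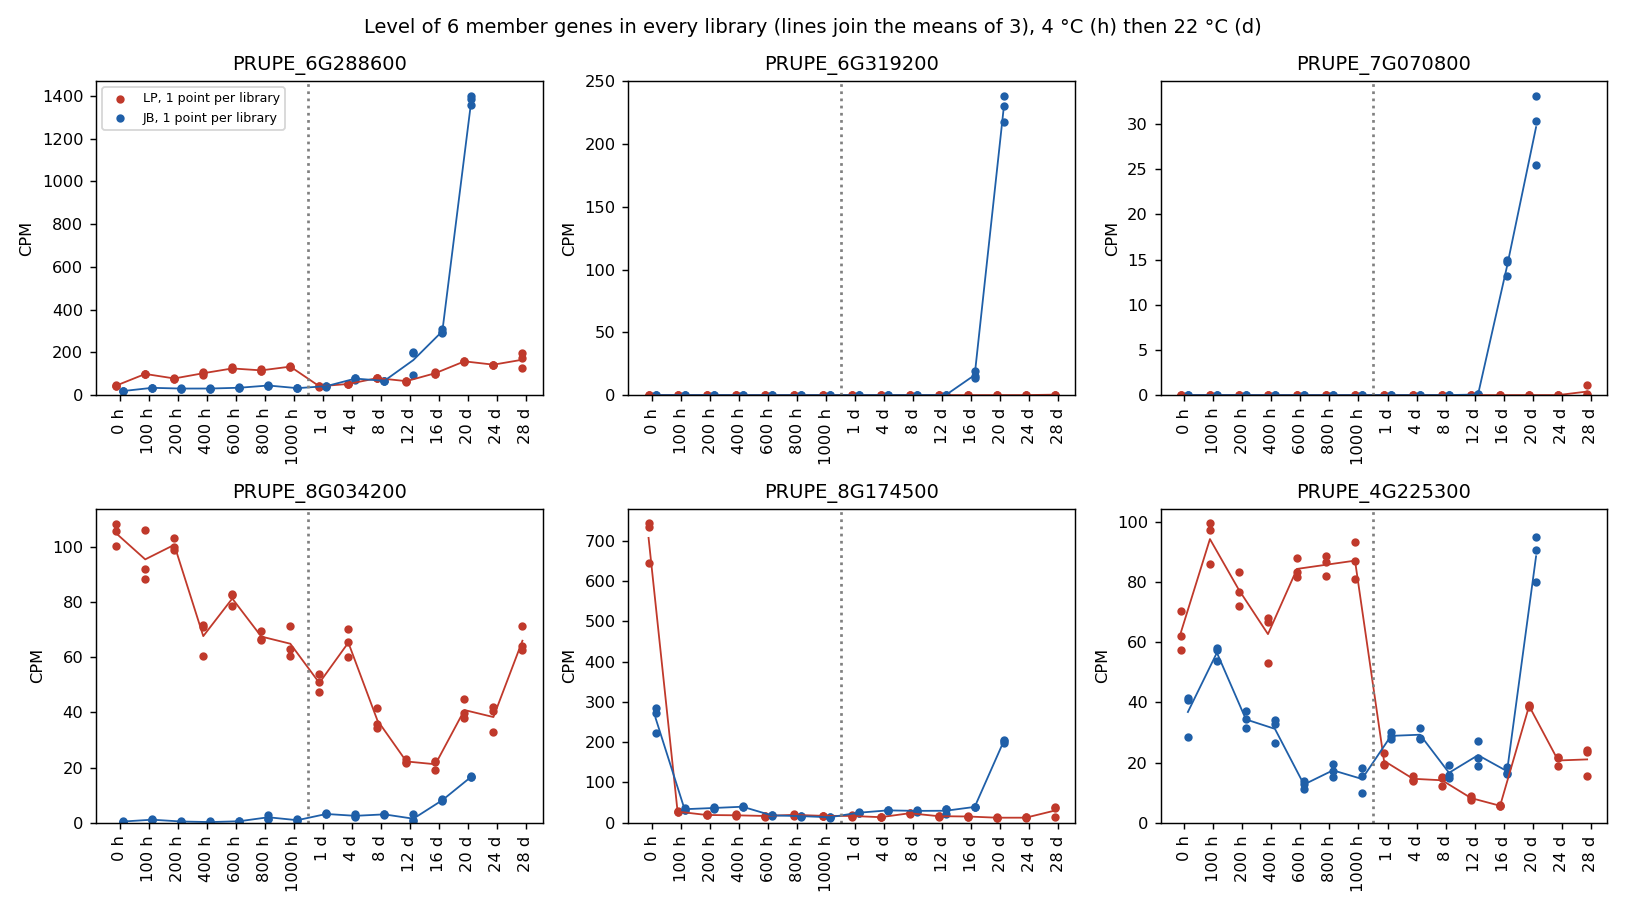
Level of 6 members in CPM (linear axes starting at 0) against time at 4 °C and then 22 °C, with 1 point per library and lines through the means of 3, LP in red and JB in blue. The upper row shows 3 members whose JB level at 20 d lies far above LP at any time, and the lower row 3 members with LP levels above JB during chilling or at 0 h.

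A pair of members had an LP level at 1000 h at or above the JB level at bloom. PRUPE_8G034200 had 60.5, 71.5 and 62.9 CPM at 1000 h and 71.5, 62.5 and 64.1 CPM at 28 d in LP. JB libraries held 0.511, 1.06 and 1.23 CPM at 1000 h, 8.62, 7.73 and 8.25 CPM at 16 d and 16.7, 16.9 and 16.5 CPM at 20 d. Every LP library at these times lay above every JB library, so the low LP ratio of this gene went with a high LP level. PRUPE_4G017100 had 6.26, 4.93 and 5.96 CPM at 1000 h and 1.59, 1.94 and 0.858 CPM at 28 d in LP, against 0.715, 0.587 and 0.819 CPM at 1000 h and 5.33, 5.38 and 4.90 CPM at 20 d in JB.

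The first tested question was whether the members already differed between the genotypes before the period that chose them. The rule divided by the 1000 h levels, so a high LP or low JB level that lasted to 1000 h favoured membership. The comparison set was chosen the opposite way in LP. The directions in this and the following comparisons are therefore not free of the choice. Tests were edgeR's quasi-likelihood test in 1 fit over all 84 libraries, with Benjamini-Hochberg adjustment over the 21168 genes that passed a low-count filter, with adjusted p below 0.05 taken as a call. All 167 members passed that filter, which they could do through JB at 20 d alone, so silent members were tested with almost no reads. Over the mean of chilling from 0 to 800 h, 42 members (25.1%) were higher in LP than in JB, where 36.3% of all tested genes were, and 30 (18%) were lower, where 31.6% were. With a 2-fold minimum 11 members (6.59%) were higher, where 3.33% of all tested genes were, and 12 (7.19%) were lower, where 7.33% were. In the comparison set 19.3% were higher and 43% lower.

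By class, the calls higher in LP were 0 of 74 silent members, 4 of 25 in the middle class and 38 of 68 in the highest class, and those lower in LP were 1, 9 and 20. The median log2 difference was 0.00 over the members, a value that the many silent members fix here and in the comparisons below, and 0.01 over all tested genes. It was 0.22 over the 68 members of the highest class and -0.23 over the comparison set. The classes were cut on the same libraries, so few calls among silent members were fixed by the cut and the split is a description. With the 2-fold minimum, 1 silent member, 8 of the middle class and 3 of the highest class were lower in LP.

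PRUPE_8G034200 was among the members higher in LP, with no overlap of the genotypes at any of the 6 times. Its mean over 0 to 800 h was 86.3 CPM in LP and 0.807 CPM in JB, and the tested value, the mean of the log2 differences at the 6 times, was 7.06 ± 0.08 (SE; edgeR, adjusted p = 4.57e-68). That value is not the log2 ratio of the printed means, here or for the next genes. In LP its means were 105, 95.5, 101, 67.7, 81.3 and 67.5 CPM at 0, 100, 200, 400, 600 and 800 h, and in JB none of the 6 means was above 2.00 CPM. PRUPE_7G153900 averaged 4.16 CPM in LP and 1.20 CPM in JB over 0 to 800 h (mean of log2 differences 2.42 ± 0.34, edgeR adjusted p = 9.57e-09).

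PRUPE_1G156300 was lower in LP, also with no overlap of the genotypes at any of these times. It averaged 48.8 CPM in LP and 107 CPM in JB, with a mean of log2 differences over the 6 times of -0.84 ± 0.03 (edgeR, adjusted p = 7.40e-34). LP means stayed between 43.2 and 54.4 CPM. JB means were 64.9, 131, 248, 64.4, 64.4 and 67.3 CPM at 0, 100, 200, 400, 600 and 800 h, so JB had a peak at 200 h that LP did not show in its level. The warm values of this gene were 101, 108 and 105 CPM at 20 d and 94.3, 88.3 and 83.6 CPM at 28 d in LP, and 110, 111 and 111 CPM at 16 d and 394, 388 and 383 CPM at 20 d in JB.

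Before any chilling, at 0 h, more members were higher in LP than lower. At 0 h 38 members (22.8%) were higher in LP, where 22% of all tested genes were, and 13 (7.78%) were lower, where 20.9% were. With a 2-fold minimum 24 members (14.4%) were higher, where 4.54% of all tested genes were, and 4 (2.4%) were lower, where 5.7% were. Of the calls, 35 of the higher and 9 of the lower were among the 68 members of at least 1 CPM in chilling. Their median log2 difference was 0.49, against 0.00 over all 167 members and over all tested genes, and -0.03 over the comparison set. The LP mean was above the JB mean for 50 of the 68. The shares of all tested genes above include genes near 0 CPM, and no share was taken over genes of a like level. The counts within this class are therefore a description.

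**Figure D5:**
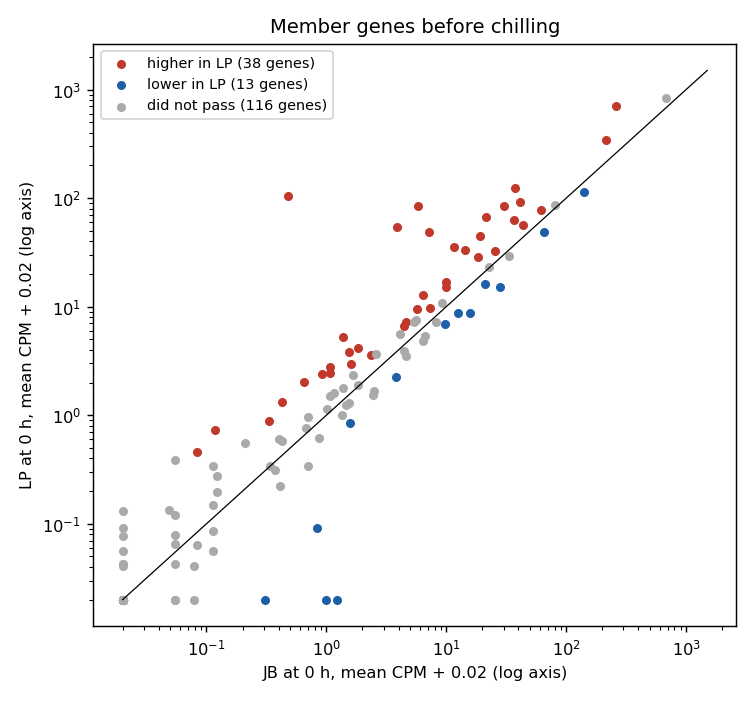
Each point is 1 of the 167 members, with the LP mean at 0 h on the vertical axis and the JB mean at 0 h on the horizontal axis (CPM + 0.02, log axes), the line of equality, and colour for the edgeR call. The 38 members higher in LP reach well above the line, and most of the 13 lower in LP lie close under it.

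PRUPE_8G034200 had 106, 108 and 101 CPM in LP and 0.350, 0.410 and 0.616 CPM in JB at 0 h, a log2 difference of 7.82 ± 0.21 (edgeR, adjusted p = 1.58e-42). PRUPE_2G289500 had 88.0, 89.5 and 76.1 CPM in LP and 6.65, 7.49 and 3.39 CPM in JB at 0 h, a difference of 3.83 ± 0.17 (edgeR, adjusted p = 3.96e-29). Neither gene's groups overlapped. In the other direction, PRUPE_2G207600 had no read in LP and 1.22, 0.718 and 1.64 CPM in JB at 0 h (edgeR, adjusted p = 2.03e-07). Its fitted fold change rests on the absence of LP reads and is not given. PRUPE_3G208400 had 0.480, 0.973 and 1.04 CPM in LP and 2.01, 1.13 and 1.54 CPM in JB at 0 h, a difference of -0.94 ± 0.38 (edgeR, adjusted p = 0.0405). Without replicate 1 its difference was -0.42 with an adjusted p of 0.609.

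The level at 0 h was high also against bloom for part of the highest class. For 10 of the 68 the LP mean at 0 h was at or above the JB mean at 20 d, and for 5 the JB mean at 0 h was. In LP 0 h was the highest of all 15 times for 18 of the 68, and in JB it was the highest of all 13 times for 5. The rule kept LP warm means low against 1000 h and required a JB rise by 20 d. The contrast of these counts between the genotypes is thus partly set by the choice. They are a description, and the same counts were not made for the comparison set.

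Chilling then changed the members in both directions in each genotype. These comparisons use the same 0 h libraries as the one above, so they are not independent of it. In LP, 21 members (12.6%) were higher at 800 h than at 0 h, where 25.7% of all tested genes were, and 33 (19.8%) were lower, where 27.3% were. With a 2-fold minimum 12 (7.19%) were higher in LP, where 4.63% of all tested genes were, and 23 (13.8%) were lower, where 10.6% were. In JB, 27 members (16.2%) were higher at 800 h, where 28.9% of all tested genes were, and 37 (22.2%) were lower, where 30.7% were. With a 2-fold minimum 19 (11.4%) were higher in JB, where 7.69% of all tested genes were, and 29 (17.4%) were lower, where 11.2% were. The 74 silent members had almost no reads to test, and of the 68 members of the highest class 20 were higher and 27 lower in LP, and 21 were higher and 30 lower in JB. In the comparison set 481 of 983 fell and 58 rose in LP, and 452 fell and 91 rose in JB. The median log2 change over the highest class was -0.14 in LP and -0.15 in JB, and 0.00 over all tested genes in each genotype. Over all members it was 0.00.

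PRUPE_7G153900 rose in both genotypes. In LP it had 7.96, 8.84 and 5.58 CPM at 800 h and 0.274, 0.324 and 0.491 CPM at 0 h, a log2 change of 4.18 ± 0.55 (edgeR, adjusted p = 2.72e-09). In JB it had 4.73, 5.09 and 3.74 CPM at 800 h and 0, 0.103 and 0 CPM at 0 h (edgeR, adjusted p = 1.02e-07), and the single JB read at 0 h leaves the size of that change undetermined. In the warm it had 1.22, 1.74 and 10.3 CPM at LP 28 d, and 46.2, 51.1 and 56.2 CPM at 16 d and 59.1, 60.0 and 59.9 CPM at 20 d in JB. Its LP 28 d mean is carried by the library that stood apart.

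PRUPE_1G500400 also rose in both genotypes. In LP it had 17.4, 17.4 and 16.2 CPM at 800 h and 0.480, 1.73 and 0.736 CPM at 0 h, a log2 change of 4.16 ± 0.26 (edgeR, adjusted p = 8.64e-23), and in JB its change was 2.15 ± 0.29 (edgeR, adjusted p = 2.30e-09). PRUPE_5G123500 rose in LP by 2.73 ± 0.19 (edgeR, adjusted p = 8.28e-21) and in JB, where it had 10.4, 10.3 and 9.51 CPM at 800 h and 0.875, 1.33 and 0.924 CPM at 0 h, a change of 3.06 ± 0.22 (edgeR, adjusted p = 2.22e-20). The test of the difference between genotypes gave an adjusted p of 0.537 for PRUPE_5G123500. In LP for PRUPE_1G500400 and in JB for PRUPE_5G123500 the libraries of 800 h and 0 h did not overlap.

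Among the falls named by the rule for at least 1 CPM and no overlap were the following. PRUPE_8G174500 had 17.7, 21.1 and 20.1 CPM at 800 h and 645, 742 and 733 CPM at 0 h in LP, a log2 change of -5.27 ± 0.15 (edgeR, adjusted p = 1.67e-42). PRUPE_4G082500 had 1.69, 2.09 and 2.08 CPM at 800 h and 74.5, 106 and 96.7 CPM at 0 h in LP (-5.65 ± 0.18, edgeR adjusted p = 2.22e-39). In JB it had 1.17, 1.94 and 1.82 CPM at 800 h and 43.4, 34.2 and 46.9 CPM at 0 h (-4.92 ± 0.19, edgeR adjusted p = 8.65e-35). None of these groups overlapped.

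PRUPE_2G289500 fell in JB to 0.0615, 0.185 and 0 CPM at 800 h, against 6.65, 7.49 and 3.39 CPM at 0 h, a log2 change of -6.20 ± 0.45 (edgeR, adjusted p = 9.12e-20). At bloom it stood at 0.750, 0.511 and 0.536 CPM in LP (28 d) and at 13.2, 12.1 and 12.2 CPM in JB (20 d). PRUPE_8G174500 stood at 36.0, 39.7 and 15 CPM in LP and at 198, 206 and 202 CPM in JB at bloom. Both genes thus had a high level before chilling in LP and a low one at LP bloom.

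The change over chilling differed between the genotypes for 27 members. The change from 0 to 800 h was more positive in LP for 14 members (8.38%), where 9.71% of all tested genes passed, and more negative for 13 (7.78%), where 9.53% passed. With a 2-fold minimum 5 (2.99%) were more positive, where 1.81% of all tested genes passed, and 9 (5.39%) were more negative, where 2.86% passed. Among the comparison set 72 of 983 were more positive and 130 more negative. Without replicate 2 there were 16 calls, with 8 in each direction, and without replicate 1 there were 19, with 7 more positive and 12 more negative. With no 2-fold minimum, the shares of all 167 members were near those of all tested genes. The 167 include the 74 silent members, which had almost no reads to test and gave 0 calls. Of the calls, 14 of the more positive and 12 of the more negative were among the 68 members of the highest class. The median difference of changes was 0.00 over the members, -0.01 over all tested genes and -0.12 over the comparison set.

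PRUPE_4G225300 had 86.5, 81.9 and 88.6 CPM at 800 h and 57.3, 70.5 and 61.9 CPM at 0 h in LP, against 17.3, 15.3 and 19.7 CPM at 800 h and 41.4, 40.6 and 28.3 CPM at 0 h in JB. The genotypes moved in opposite directions, with a difference of changes of 1.65 ± 0.19 on the log2 scale (edgeR, adjusted p = 4.36e-10). At 28 d it stood at 24.2, 23.4 and 15.5 CPM in LP, below LP 1000 h at 80.9, 93.2 and 86.9 CPM, while in JB it stood at 95.0, 79.9 and 90.5 CPM at 20 d. The LP level of this gene at the end of chilling was close to its JB level at bloom.

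PRUPE_5G013100 had 2.59, 1.89 and 3.21 CPM at 800 h and 54.3, 53.3 and 55.8 CPM at 0 h in LP, against 1.17, 1.29 and 1.92 CPM at 800 h and 5.16, 3.59 and 2.87 CPM at 0 h in JB. Its difference of changes was -2.81 ± 0.37 (edgeR, adjusted p = 2.02e-08). The levels at 800 h were near each other and those at 0 h far apart. PRUPE_1G500400 differed by 2.01 ± 0.47 (edgeR, adjusted p = 0.00115), with 5.59, 8.41 and 6.95 CPM at 800 h and 1.31, 1.54 and 1.13 CPM at 0 h in JB beside the LP values above. PRUPE_6G351400 differed by -2.70 ± 0.92 (edgeR, adjusted p = 0.0285), with 0, 0.0994 and 0.0945 CPM at 800 h and 1.23, 1.19 and 1.23 CPM at 0 h in LP, against 0.553, 0.555 and 0.748 CPM at 800 h and 1.14, 1.44 and 1.75 CPM at 0 h in JB. Without replicate 1 the adjusted p was 0.106 for PRUPE_1G500400 and 0.188 for PRUPE_6G351400.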

How the data were processed

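The values deposited by the authors are counts of reads per gene in 84 libraries, whole numbers without normalization. Genotype, treatment and time in the labels gave the groups. FastQC 0.11.9, Trimmomatic, STAR 2.6.0 and edgeR are named in the submitters' processing notes without their roles, and per the labels' protocols libraries were made with a stranded mRNA kit. Not given in the sources used here are the genome build, the annotation, the counting tool and its strand setting. Levels are CPM on library totals.

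Tests used edgeR 4.0.16 (glmQLFit and glmQLFTest, R 4.3.3) on the counts as deposited, with TMM scaling and 1 mean per group in 1 fit of all 84 libraries. filterByExpr kept 21168 genes, and the 5711 left out held 0.028% of reads. Benjamini-Hochberg adjustment ran over all genes tested in a comparison. The fit was tested on simulated data with known changes. Alternatives were DESeq2 1.42.0, its size factors, no filter, a fit restricted to the groups compared, a replicate block, a 2-fold minimum and omission of each replicate.

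The members and lists were chosen with earlier results of these data known. Genes named were the 6 highest members in JB at 20 d, the 4 highest with no LP read, those with LP 1000 h at or above JB 20 d, those 4-fold at 12 d, those nearest each limit, the longest run of neighbours and, per tested comparison, up to 2 called members in each direction with at least 1 CPM and no overlap of groups. Intervals and floors cover counting error only. Sequences and gene descriptions were not used here.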

Additional observations from a re-analysis of the deposited data

Results flagged for a closer look

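The change from 0 to 800 h of chilling differed between LP and JB, by edgeR's test of the difference itself, for 27 members, of which 14 had the more positive change in LP (8.38% of members, 9.71% of all tested genes) and 13 the more negative (7.78% of members, 9.53% of all tested genes). Counted over all members, both shares lay below those of all tested genes, so the count alone does not set the members apart. The 74 silent members gave 0 of these calls, and 14 of the more positive and 12 of the more negative were in the highest class. Without replicate 2 there were 16 such members, with 8 in each direction. Without replicate 1 there were 19, with 7 more positive and 12 more negative. Among the genes named above, the log2 difference of changes (LP minus JB) was 2.01 for PRUPE_1G500400, 1.65 for PRUPE_4G225300, -2.81 for PRUPE_5G013100, -2.70 for PRUPE_6G351400, -2.60 for PRUPE_8G034200 and -1.06 for PRUPE_8G174500. PRUPE_8G034200 averaged, in LP, 67.5 ± 1.71 CPM (800 h) and 105 ± 4.06 CPM (0 h), against JB means of 2.00 ± 0.833 CPM (800 h) and 0.459 ± 0.139 CPM (0 h) (SD, n = 3 each). PRUPE_8G174500 averaged, in LP, 19.6 ± 1.73 CPM (800 h) and 707 ± 53.5 CPM (0 h), against JB means of 16.5 ± 1.09 CPM (800 h) and 260 ± 33.2 CPM (0 h).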

How the results depend on the processing

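The number of genes the rule chose, 167, was 110 with 0.1 CPM added in place of 0.5 (101 of them members), 101 with an LP limit of 1.5 times, 305 with a limit of 3 times and, as an alternative chosen after seeing the data, 405 when LP was read only to 24 d. It was 228 with TMM-scaled totals, 239 with DESeq2 size factors, 207 with 1 CPM added, 186 with group medians, 247 against the LP mean over chilling, 157 to 197 without 1 replicate number, and 198 without both libraries that stood apart. TMM scaling shifted log2 levels at LP 28 d by -0.27 and at JB 20 d by 0.14 relative to 1000 h. With a 2-fold minimum the members called over the chilling mean were 23, with 11 higher and 12 lower in LP against 42 and 30, those called at 0 h were 28, those called between 800 and 0 h in LP were 35, and those called for the difference of changes were 14, with 5 more positive and 9 more negative. Fewer genes can pass a stricter call. The difference of changes gave 19 calls without replicate 1, with 7 more positive and 12 more negative, and 16 without replicate 2, and the cause was not tested. Without 1 replicate number the calls ran from 59 to 66 over the chilling mean, from 39 to 47 at 0 h, from 45 to 48 in LP, from 50 to 61 in JB and from 16 to 21 for the difference. Of the repeats for named genes 163 kept direction and call and 7 kept direction only. These were PRUPE_3G208400 at 0 h and PRUPE_1G500400 and PRUPE_6G351400 for the difference, the last with an adjusted p of 0.0537 by DESeq2 and 0.0839 to 0.188 without 1 replicate number.

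Replicate numbers did not pair the samples, since deviations of same-numbered libraries correlated from -0.422 to 0.427 with a median of -0.00109 over 1134 pairs. With the replicate block the calls were 72 over the chilling mean, 51 at 0 h, 55 in LP, 63 in JB and 26 for the difference, against 72, 51, 54, 64 and 27 without it. Depth limits the silent members most, since a group of 3 LP 28 d libraries with no read allows up to 0.101 CPM.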
